A study of Homo sapiens with 8 samples.

Results

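RNA from HepG2 cells was sequenced with and without sodium benzoate (SB), and 50 genes of mitosis were followed through the resulting expression table. The genes were taken by name, and cover the cyclins and CDK1 with their regulators, the spindle, the spindle checkpoint, the kinetochore, the chromosomal passenger complex, anaphase onset, cytokinesis and the condensed chromosome. All 50 had a row among the 14526 genes of the table. HepG2 is an established human liver carcinoma line. The control group held 4 libraries of cells grown in DMEM with fetal bovine serum, and the SB-treated group held 4 libraries of the same line grown in the same medium with 10 mM SB for 24 h; no other agent or genetic change is given for either group. The labels describe the 4 libraries of each group as biological replicates, without saying whether they were separate cultures, so p-values measure the spread between these libraries only. SB was the agent with which the study examined benzoylation of histone lysines, and the comparison asks how transcript levels differed between treated and control cells.

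Levels are RPKM, reads scaled to the length of the gene and to the size of the library, with library sizes adjusted by the authors with TMM factors, which align libraries on the genes that change least. The 8 libraries held 36990091 to 44878446 reads over the genes of the table, recovered from the steps of the RPKM values. The factors were 0.956 to 0.9684 in control and 1.0336 to 1.0405 in SB-treated libraries, so scaling itself lowered SB-treated values relative to control. Of 20 hepatocyte markers, 18, among them ALB, APOA1 and AFP, had no row. The labelled liver line was thus not borne out by its defining transcripts. Of 7 keratinocyte and fibroblast markers, 3 had a row, summing to 6.14 to 8.32 RPKM in control and 6.07 to 6.29 RPKM in SB-treated libraries, and of 7 blood markers 2 had a row, at 2.01 to 2.37 and 1.99 to 2.29 RPKM. Control replicate 1 stood apart from the other control libraries, and calls of the mitotic genes that turn on it are given with and without it.

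Entry into mitosis is driven by CDK1 bound to cyclin B. The kinases PLK1, AURKA and AURKB then act on the spindle, the centromeres and the kinetochores, the protein assemblies that tie chromosomes to microtubules. Unattached kinetochores hold the spindle checkpoint active through MAD2L1, BUB1B, BUB3 and their partners, which restrain CDC20 and the anaphase-promoting complex. Once all chromosomes are attached, that complex marks securin (PTTG1) and cyclin B for destruction, separase (ESPL1) cuts cohesin, and sister chromatids part. Most of these genes are transcribed late in the cell cycle, in G2 and M phase, through promoters that carry a cell cycle homology region (CHR) bound by MuvB complexes and CCAAT boxes bound by NF-Y. In resting or arrested cells, the DREAM complex holds the same promoters silent, while B-MYB (MYBL2) and FOXM1 activate them in dividing cells.

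The promoters are shown first because many of these genes share short stretches of letters there. RefSeq promoters, from 250 bases before to 50 bases after the gene's start on GRCh38.p14, were matched by symbol for 41 of the 50 genes. For ZWINT, AURKB, CKAP2 and SMC2 the start of the promoter entry lies inside the RefSeq span of the gene. No entry was found for FOXM1, AURKA, TPX2, BUB3, TTK, KNTC1, BIRC5, UBE2C and RACGAP1. The CHR was searched as TTTGAA or TTCGAA and the CCAAT box as CCAAT, each on both strands, so that TTCAAA and ATTGG also count. TTCGAA is its own reverse complement. CHR letters were present in 31 of 41 mitotic promoters (75.6%), against 10.9% of 10651 promoters of genes in the table and 16.6% of 27305 promoters in all. CCAAT letters were present in 70.7%, against 36.4% and 35.7%, and both together in 56.1%, against 4.61% and 6.58%. CHR letters that began between positions -50 and -5, counted back from the base before the start as -1, were found in 34.1% of mitotic promoters and in 1.4% of promoters of genes in the table.

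The last 95 bases before the start are printed for 3 genes that rose, 3 that fell and 2 that passed in neither direction, since the letters appear in each class. Capitals mark CHR and CCAAT letters on either strand, and each line reads 5′ to 3′ on the gene's strand. Genes that rose in SB-treated cells were
PLK1 (chr16:23678794-23678888, plus strand): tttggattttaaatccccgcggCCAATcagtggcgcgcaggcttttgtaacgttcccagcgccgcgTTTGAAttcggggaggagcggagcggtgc
ESPL1 (chr12:53268204-53268298, plus strand): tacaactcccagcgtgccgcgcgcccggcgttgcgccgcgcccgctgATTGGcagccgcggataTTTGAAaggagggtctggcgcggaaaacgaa
INCENP (chr11:62123916-62124010, plus strand): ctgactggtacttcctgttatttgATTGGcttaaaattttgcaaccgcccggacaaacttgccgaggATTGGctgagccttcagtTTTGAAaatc
genes that fell were
CDCA8 (chr1:37692421-37692515, plus strand): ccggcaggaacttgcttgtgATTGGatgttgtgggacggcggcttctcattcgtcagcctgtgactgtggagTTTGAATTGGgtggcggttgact
NCAPG (chr4:17810884-17810978, plus strand): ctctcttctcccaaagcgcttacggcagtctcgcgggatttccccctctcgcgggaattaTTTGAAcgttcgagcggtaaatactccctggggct
ZWINT (chr10:56361260-56361354, minus strand): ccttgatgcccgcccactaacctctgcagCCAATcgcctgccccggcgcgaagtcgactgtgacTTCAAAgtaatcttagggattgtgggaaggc
and genes not called were
CCNB2 (chr15:59105051-59105145, plus strand): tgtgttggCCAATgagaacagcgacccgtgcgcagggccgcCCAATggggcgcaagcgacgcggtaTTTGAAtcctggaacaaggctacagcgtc
CENPA (chr2:26785961-26786055, plus strand): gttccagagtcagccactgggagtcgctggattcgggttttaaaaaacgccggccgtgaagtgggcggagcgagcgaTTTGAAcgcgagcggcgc

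In PLK1 and CCNB2 the CHR began at the same position, -29, although PLK1 rose and CCNB2 was not called. In ESPL1 and ZWINT, one of which rose and one of which fell, it began at -31, counted for ZWINT from an entry start inside the gene. NCAPG had CHR letters but no CCAAT letters in its whole window, and in CDCA8 the CHR overlapped an ATTGG. By direction of change, CHR letters were held by 8 of the 10 matched promoters of genes that rose (80%), 9 of 13 of genes that fell (69.2%) and 14 of 18 of genes not called (77.8%). Both kinds of letters were held by 70%, 46.2% and 55.6%. CHR letters that began between -50 and -5 were held by 5 of 10 (50%), 3 of 13 (23.1%) and 6 of 18 (33.3%). The 3 genes that fell with such letters are the 3 printed above. Differences between the classes were not tested. A match is a description of letters in a window and not of a bound factor.

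**Figure D1:**
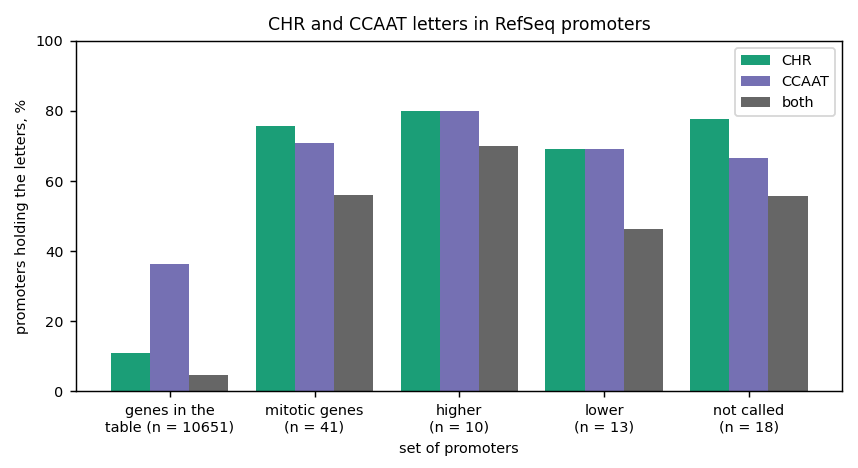
Share of RefSeq promoters (%) that hold CHR letters, CCAAT letters or both, for 10651 promoters of genes in the table, for 41 mitotic promoters, and for those of mitotic genes that were higher (n = 10), lower (n = 13) or not called (n = 18) in SB-treated cells. CHR letters reached 69.2% or more in each class of mitotic genes, against 10.9% of genes in the table.

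The mitotic genes were called in both directions. In SB-treated cells 11 of 50 were higher and 17 lower by limma on log2(RPKM + 1), at a Benjamini-Hochberg adjusted p below 0.05 over all genes, and 22 passed in neither direction. Of all genes measured, 33.0% were higher and 32.6% lower, 65.6% in either direction. Of the mitotic genes 22.0% were higher, 34.0% lower and 56.0% called. In this main fit the share higher lay below the background and the share lower near it. The place of the share higher against the background changed under some alternatives, given below. The largest rises were in ESPL1, FOXM1 and INCENP, at 1.49-, 1.45- and 1.45-fold, and the deepest falls in MAD2L1, to 0.716 of the control level, and CCNA2, to 0.754. ESPL1, FOXM1 and INCENP were the only 3 of the 50 with a log2 fold change past 0.5 in either direction. The median log2 fold change was -0.01 over the mitotic genes and 0.00 over all genes, and the median size without sign was 0.14 against 0.20. All log2 fold changes are SB-treated minus control on the log2(RPKM + 1) scale.

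Control and SB-treated libraries did not overlap for 13 genes that lay higher and 17 that lay lower in SB-treated cells, against 31.0% and 30.5% of all genes. For any gene with separated groups, a two-sided exact permutation test gives p = 0.0286, the smallest that 4 libraries against 4 allow. It gave this unadjusted value for each of these 30 genes, which restates the separation and adds no evidence to it. Of the 28 genes called, CDC25C alone had overlapping groups. BUB1B, CDCA5 and NCAPH had separated groups but adjusted p-values of 0.061, 0.071 and 0.068. In RNA from whole cultures, a changed share of cells in mitosis and a changed amount of RNA per cell cannot be told apart, for rises or falls.

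The split between higher and lower depended on the scaling. With library sizes as sequenced, without TMM factors, 19 mitotic genes were higher and 10 lower, so that 65.5% of the calls were higher in place of 39.3%. Of all genes 43.0% were higher and 23.1% lower under that scaling, so that 65.1% of their calls were higher in place of 50.2%, and their median log2 fold change moved by 0.0745. Median-of-ratios scaling gave 11 and 17, a correction of each library for GC content and gene length gave 21 and 16 (56.8% higher), and leaving out control replicate 1 gave 20 and 18 (52.6% higher). After that correction 33.6% of all genes with a GC value were higher and 37.4% lower, 47.3% of their calls being higher. Without control replicate 1 the shares of all genes were 37.6% and 37.9%, with 49.8% of the calls higher. After the correction and without control replicate 1, the share of mitotic genes higher thus lay above that of all genes, not below it. Of the 28 calls, 21 stood in the same direction without TMM, 24 after the GC and length correction and 28 without control replicate 1. FOXM1, PLK1, ASPM, CENPE, CENPF, INCENP, ESPL1, ANLN and MKI67 were higher, and CCNA2, TPX2, CKAP5, BUB3, MAD2L1, AURKB and SMC2 lower, under each of the 17 alternatives run.

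**Figure D2:**
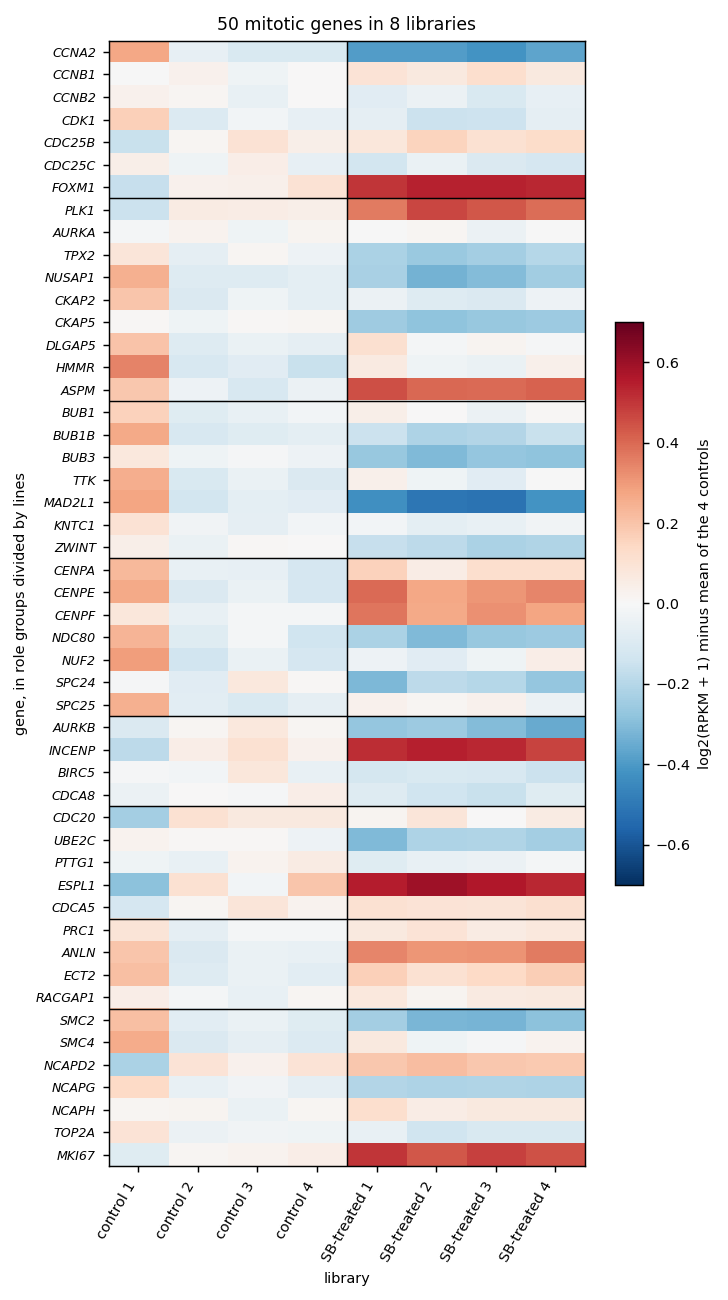
log2(RPKM + 1) of 50 mitotic genes (rows, in role groups divided by lines) in 4 control and 4 SB-treated libraries (columns), each minus the mean of the gene's 4 control libraries; red is above and blue below that mean. FOXM1, PLK1, ASPM, INCENP, ESPL1 and MKI67 were red in each SB-treated library and CCNA2 and MAD2L1 blue, and control replicate 1 differed from control replicates 2 to 4 in many rows.

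The mitotic genes were well expressed in both groups. Their control means ran from 9.66 RPKM in SPC25 to 135 RPKM in TOP2A, with a median of 37.0 RPKM against 8.30 RPKM for all genes, and all 50 lay above the median gene. The mean read count per library ran from 807 to 30502, with no value below 663 in any library. Summed over the 50 genes, the level was 2412 ± 96.9 RPKM (SD, n = 4) in control and 2322 ± 20.6 RPKM (n = 4) in SB-treated libraries. The sums ran from 2342 to 2555 RPKM in control and from 2305 to 2348 RPKM in SB-treated libraries, so the groups overlapped. Control replicate 1 held the highest sum, and the other 3 control libraries gave 2365 ± 22.0 RPKM. As a share of reads without TMM factors, the genes took 0.837 ± 0.0301% in control and 0.907 ± 0.00941% in SB-treated libraries, with no overlap. This share is not scaled to gene length, so long genes weigh more in it than in the RPKM sum. The means of the sum and of the share went in opposite directions, but these measures differ in length scaling as well as in the TMM factors.

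The counts in each role group stand beside 33.0% of all genes higher and 32.6% lower. Among the cyclins, CDK1 and its regulators, 2 of 7 genes were higher and 2 lower. FOXM1, the transcription factor that activates G2 and M genes (RefSeq, GRCh38.p14, chromosome 12, positions 2857680 to 2877174), stood at 33.8, 38.8, 38.9 and 40.8 RPKM in control replicates 1 to 4 and 54, 55.7, 55.6 and 55.2 RPKM in SB-treated replicates 1 to 4. Every SB-treated library lay above every control, and the log2 fold change was 0.53 ± 0.054 (SE), adjusted p = 2.3e-05. CCNA2, cyclin A, which partners CDK2 in S phase and CDK1 at mitotic entry (chromosome 4, positions 121816444 to 121823883), stood at 77.3, 61.2, 59.3 and 59.2 RPKM in control replicates 1 to 4 and 48.5, 48.4, 47.6 and 49.1 RPKM in SB-treated replicates 1 to 4. The SB-treated values were close together and below each control, with control replicate 1 far above the rest; the log2 fold change was -0.39 ± 0.078 (SE), adjusted p = 0.0016, and -0.30 without that library.

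Cyclin B and CDK1 themselves lay close in both groups. CCNB1, cyclin B, stood at 65.8, 67.4, 64.5 and 65.9 RPKM in control replicates 1 to 4 and 70.5, 69.1, 71.6 and 69.1 RPKM in SB-treated replicates 1 to 4. The groups were separate but close, at 1.06-fold (log2 fold change 0.09 ± 0.032 (SE), adjusted p = 0.035), and the call was lost under 8 of the 17 alternatives. CDK1, the mitotic kinase, stood at 66.2, 54.9, 58.1 and 56.5 RPKM in control replicates 1 to 4 and 56.3, 52.8, 53 and 56.2 RPKM in SB-treated replicates 1 to 4. The groups overlapped and the test was not passed (log2 fold change -0.11 ± 0.058 (SE), adjusted p = 0.14, 95% interval -0.24 to 0.02). CDC25C, a phosphatase that activates CDK1, had a log2 fold change of -0.10 (adjusted p = 0.045), a call that was lost under 12 of the alternatives. CCNB2, a second cyclin B, and CDC25B, a second CDK1 phosphatase, were not called, at control means of 45.8 and 21.6 RPKM.

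In spindle assembly, 2 of 9 genes were higher and 3 lower. PLK1, a kinase of centrosome maturation and spindle assembly (chromosome 16, positions 23678889 to 23690367), stood at 43, 49.9, 49.8 and 49.2 RPKM in control replicates 1 to 4 and 62, 66.7, 65.2 and 63.2 RPKM in SB-treated replicates 1 to 4. All SB-treated libraries exceeded all controls, and control replicate 1 was the lowest (log2 fold change 0.42 ± 0.053 (SE), adjusted p = 9e-05). ASPM, a protein of the spindle poles, stood at 18.2, 15.5, 14.6 and 15.4 RPKM in control replicates 1 to 4 and 22.1, 21.3, 21.3 and 21.5 RPKM in SB-treated replicates 1 to 4, again with no overlap (log2 fold change 0.42 ± 0.06 (SE), adjusted p = 0.00021). AURKA, the kinase of the spindle poles, stood at 26, 26.8, 25.7 and 26.6 RPKM in control replicates 1 to 4 and 26.2, 26.5, 25.5 and 26.2 RPKM in SB-treated replicates 1 to 4. Its groups were interleaved, at a log2 fold change of -0.01 ± 0.032 (SE), adjusted p = 0.85 and a 95% interval of -0.08 to 0.06; without TMM factors it was called higher, with a log2 fold change of 0.09 (adjusted p = 0.026).

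The genes that fell here encode microtubule-binding proteins. NUSAP1, which bundles spindle microtubules, stood at 80.1, 63.2, 63.2 and 64.3 RPKM in control replicates 1 to 4 and 57.4, 53.4, 54.5 and 56.7 RPKM in SB-treated replicates 1 to 4. Each SB-treated value was below each control (log2 fold change -0.28 ± 0.074 (SE), adjusted p = 0.0085), and the call was not made without TMM factors. TPX2, which activates AURKA on spindle microtubules, fell from 74.1 ± 3.36 RPKM in control to 63 ± 1.09 RPKM in SB-treated libraries (SD, n = 4; log2 fold change -0.23 ± 0.04 (SE), adjusted p = 0.00065). CKAP5, a microtubule polymerase, went from 100.4 ± 1.29 RPKM in control to 83.6 ± 0.952 RPKM in SB-treated libraries (log2 fold change -0.26 ± 0.03 (SE), adjusted p = 5.2e-05). The interleaved AURKA levels thus sat beside a lower level of its activator. CKAP2, DLGAP5 and HMMR, 3 further spindle proteins, were not called, at control means of 60.6, 33.7 and 25.2 RPKM, and in each of them control replicate 1 was the highest control.

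No spindle checkpoint gene was called higher and 3 of 7 were lower. MAD2L1, which binds and restrains CDC20 (chromosome 4, positions 120055623 to 120066848), stood at 145, 109.7, 114 and 113 RPKM in control replicates 1 to 4 and 88.8, 84, 83.4 and 89.5 RPKM in SB-treated replicates 1 to 4. Control replicate 1 was far above the other controls, and SB-treated libraries were below all of them; the log2 fold change was -0.47 ± 0.081 (SE), adjusted p = 0.00069, and -0.38 without that library. BUB3, which brings BUB1 and BUB1B to the kinetochore, stood at 126, 118, 119 and 117 RPKM in control replicates 1 to 4 and 99.7, 96.6, 99.4 and 98.6 RPKM in SB-treated replicates 1 to 4. The groups were far apart relative to their spread (log2 fold change -0.28 ± 0.036 (SE), adjusted p = 9.9e-05). ZWINT, a kinetochore protein that serves in recruiting the checkpoint's ROD, ZW10 and Zwilch proteins, went from 126 ± 3.17 RPKM in control to 110.0 ± 2.0 RPKM in SB-treated libraries (log2 fold change -0.19 ± 0.034 (SE), adjusted p = 0.0007).

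The other checkpoint genes were not called. BUB1, a checkpoint kinase, stood at 38.5, 32.3, 33.1 and 33.9 RPKM in control replicates 1 to 4 and 35.4, 34.4, 33.4 and 34.5 RPKM in SB-treated replicates 1 to 4. SB-treated values fell inside the control range, at a log2 fold change of 0.00 ± 0.054 (SE), adjusted p = 0.98 and a 95% interval of -0.12 to 0.12. BUB1B, which inhibits the anaphase-promoting complex together with MAD2L1, was lower in each SB-treated library than in any control (31.6 ± 4.25 RPKM in control and 27.6 ± 0.639 RPKM in SB-treated libraries; adjusted p = 0.061), and was called lower without control replicate 1 (log2 fold change -0.09, adjusted p = 0.012). TTK, the kinase that starts checkpoint signalling, and KNTC1, the ROD protein, were not called, at control means of 30.01 and 27.2 RPKM. After the GC and length correction KNTC1 was called lower (log2 fold change -0.11, adjusted p = 0.0017). BUB1B was called lower there too (log2 fold change -0.16, adjusted p = 0.021).

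At the centromere and outer kinetochore, 2 of 7 genes were higher and 2 lower. CENPE, a motor protein that moves chromosomes to the spindle's middle, stood at 20.2, 15.5, 16.1 and 15.3 RPKM in control replicates 1 to 4 and 22.2, 20.3, 20.9 and 21.4 RPKM in SB-treated replicates 1 to 4. SB-treated libraries were above all controls, but only narrowly above control replicate 1 (log2 fold change 0.33 ± 0.079 (SE), adjusted p = 0.0046). CENPF, a large kinetochore protein, went from 42.1 ± 1.7 RPKM in control to 52.4 ± 1.85 RPKM in SB-treated libraries (log2 fold change 0.31 ± 0.041 (SE), adjusted p = 0.00013). NDC80, which binds microtubules as part of a complex of 4 proteins with NUF2, SPC24 and SPC25, stood at 38.3, 30.4, 32 and 29.2 RPKM in control replicates 1 to 4 and 27.5, 25.9, 26.7 and 26.9 RPKM in SB-treated replicates 1 to 4. Its SB-treated values lay below each control (log2 fold change -0.26 ± 0.074 (SE), adjusted p = 0.011), and the call was not made without TMM factors.

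Members of the NDC80 complex had different calls, and the difference between subunits was not tested. SPC24 was lower, from 33 ± 1.5 RPKM in control to 27.8 ± 1.22 RPKM in SB-treated libraries (log2 fold change -0.24 ± 0.045 (SE), adjusted p = 0.0011), and was not called after the GC and length correction. NUF2 and SPC25 were not called, at control means of 39.2 and 9.66 RPKM. CENPA, the histone H3 variant that marks the centromere, stood at 17.3, 14.1, 14.1 and 13.4 RPKM in control replicates 1 to 4 and 16.5, 15.2, 16 and 16 RPKM in SB-treated replicates 1 to 4. Control replicate 1 was above all SB-treated libraries and the other 3 controls below them, so the groups overlapped (log2 fold change 0.11 ± 0.07 (SE), adjusted p = 0.18); without control replicate 1 CENPA was called higher, with a log2 fold change of 0.19 (adjusted p = 0.00062).

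All 4 genes of the chromosomal passenger complex passed the test, 1 higher and 3 lower, where 65.6% of all genes passed it. INCENP, the scaffold of the complex (chromosome 11, positions 62124011 to 62153169), stood at 12.9, 15.3, 16 and 15.1 RPKM in control replicates 1 to 4 and 21.5, 22, 21.7 and 20.9 RPKM in SB-treated replicates 1 to 4. SB-treated libraries were well above all controls (log2 fold change 0.52 ± 0.059 (SE), adjusted p = 4.5e-05). AURKB, the kinase that INCENP carries, stood at 60.9, 66, 69 and 66 RPKM in control replicates 1 to 4 and 54, 54.7, 52.7 and 51 RPKM in SB-treated replicates 1 to 4. It was lower in each SB-treated library (log2 fold change -0.30 ± 0.044 (SE), adjusted p = 0.00027). BIRC5, survivin, which anchors the complex at the centromere, stood at 49.4, 49.1, 52.6 and 48 RPKM in control replicates 1 to 4 and 45.6, 46.1, 45.9 and 44.7 RPKM in SB-treated replicates 1 to 4, with separate groups and a smaller change (log2 fold change -0.12 ± 0.037 (SE), adjusted p = 0.015).

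CDCA8, borealin, the fourth subunit, went from 26.5 ± 0.684 RPKM in control to 24.4 ± 0.61 RPKM in SB-treated libraries (log2 fold change -0.12 ± 0.035 (SE), adjusted p = 0.014). The calls of BIRC5 and CDCA8 were not made without TMM factors, whereas those of INCENP and AURKB were. Subunits of one complex thus moved in opposite directions, INCENP higher and AURKB lower, under each alternative run.

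**Figure D3:**
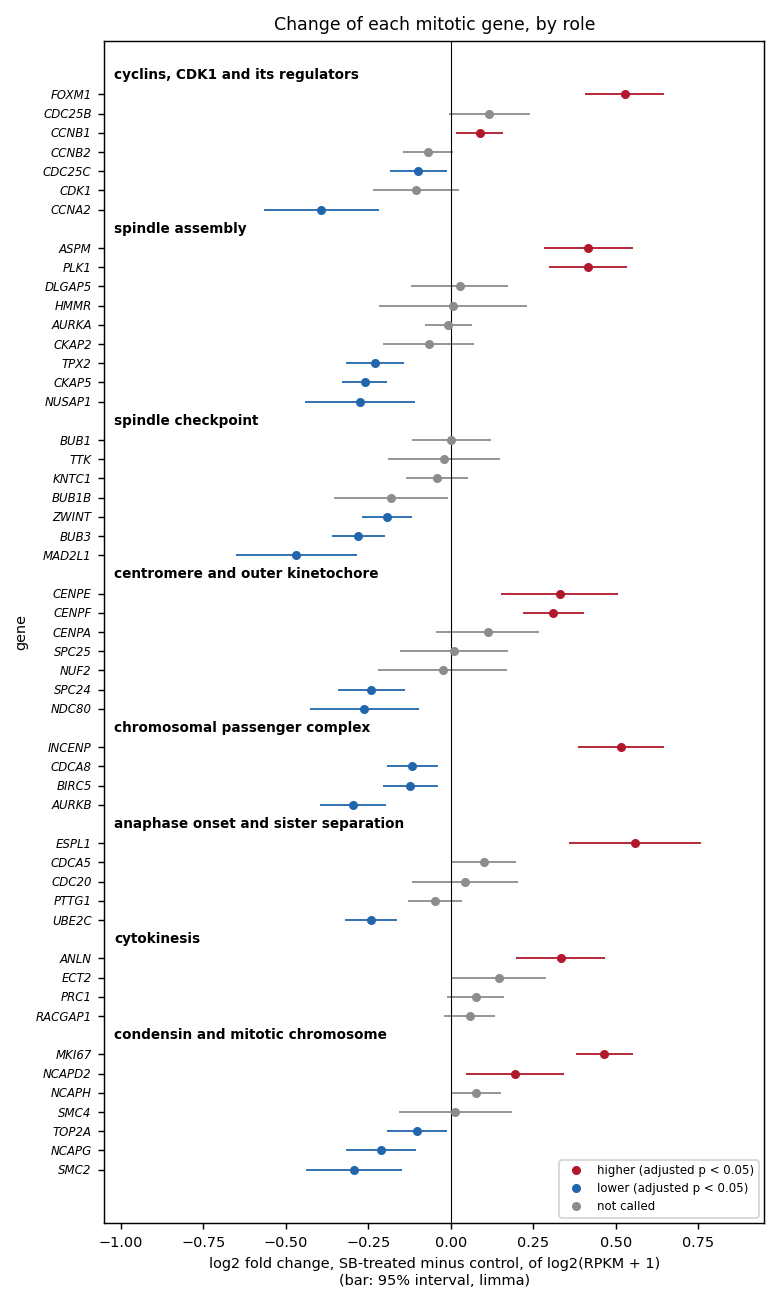
log2 fold change (SB-treated minus control, of log2(RPKM + 1)) of 50 mitotic genes, ordered within role groups, with 95% intervals from limma; red marks genes called higher (11), blue lower (17) and grey not called (22). Values ran from -0.47 in MAD2L1 to 0.56 in ESPL1, and each role group other than the spindle checkpoint and cytokinesis held genes of both colours.

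At anaphase onset and sister separation, 1 of 5 genes was higher and 1 lower. ESPL1, separase, the protease that cuts cohesin (chromosome 12, positions 53268299 to 53293638), stood at 12, 16.1, 14.6 and 17.1 RPKM in control replicates 1 to 4 and 22.1, 22.9, 22.3 and 21.8 RPKM in SB-treated replicates 1 to 4. The controls were spread, with control replicate 1 lowest, and SB-treated libraries lay together above them (log2 fold change 0.56 ± 0.089 (SE), adjusted p = 0.0004). UBE2C, the ubiquitin-conjugating enzyme of the anaphase-promoting complex, stood at 62.2, 61.4, 61.4 and 59.6 RPKM in control replicates 1 to 4 and 49.2, 52.5, 52.7 and 51.7 RPKM in SB-treated replicates 1 to 4. It was lower in each SB-treated library (log2 fold change -0.24 ± 0.035 (SE), adjusted p = 0.00023), a call not made after the GC and length correction. CDC20, the activator of the anaphase-promoting complex and the checkpoint's target, stood at 61.2, 78, 76 and 75.9 RPKM in control replicates 1 to 4 and 73.5, 77, 72.7 and 75.5 RPKM in SB-treated replicates 1 to 4. Control replicate 1 was the lowest of the 8 libraries and the groups overlapped (log2 fold change 0.04 ± 0.071 (SE), adjusted p = 0.62).

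PTTG1, securin, which holds separase inactive, was not called, at a control mean of 52.9 RPKM. CDCA5, sororin, which keeps cohesin on chromosomes until anaphase, was higher in each SB-treated library than in any control but did not pass the adjusted threshold (49.5 ± 2.89 RPKM in control and 53 ± 0.348 RPKM in SB-treated libraries; adjusted p = 0.071). After the GC and length correction PTTG1, CDCA5, CDC20 and ESPL1 were each called higher, and CDCA5 also without TMM factors.

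Of 4 cytokinesis genes, 1 was higher and none lower. ANLN, anillin, a scaffold of the contractile ring, stood at 25.1, 20.3, 21.2 and 21.1 RPKM in control replicates 1 to 4 and 27.9, 27.3, 27.4 and 28.4 RPKM in SB-treated replicates 1 to 4. SB-treated libraries were above all controls (log2 fold change 0.33 ± 0.06 (SE), adjusted p = 0.00091). PRC1, which bundles the microtubules of the central spindle, and ECT2 and RACGAP1, which together switch on RhoA at the cleavage site, were not called, at control means of 90.9, 30.1 and 28.5 RPKM. These 3 genes were called higher without TMM factors, after the GC and length correction, and without control replicate 1.

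Among the condensins and the other proteins of the mitotic chromosome, 2 of 7 genes were higher and 3 lower. MKI67, the proliferation marker Ki-67, which coats mitotic chromosomes (chromosome 10, positions 128096659 to 128126423), stood at 26.9, 28.9, 29 and 29.5 RPKM in control replicates 1 to 4 and 40.8, 39, 40.1 and 39.2 RPKM in SB-treated replicates 1 to 4. The spread within each group was small beside the difference between them (log2 fold change 0.46 ± 0.039 (SE), adjusted p = 6.8e-06). TOP2A, the topoisomerase that untangles sister chromatids, stood at 144, 131, 133 and 132 RPKM in control replicates 1 to 4 and 130.1, 122, 125 and 125 RPKM in SB-treated replicates 1 to 4. It was lower in each SB-treated library by a small margin (log2 fold change -0.10 ± 0.041 (SE), adjusted p = 0.049), a call lost under 9 of the 17 alternatives, and without TMM factors its log2 fold change was 0.00 (adjusted p = 0.96). SMC2, a core subunit of condensin, stood at 35.3, 28.8, 29.4 and 28.6 RPKM in control replicates 1 to 4 and 25.7, 24.1, 24 and 24.7 RPKM in SB-treated replicates 1 to 4, lower with no overlap (log2 fold change -0.29 ± 0.065 (SE), adjusted p = 0.003).

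SMC4, the partner of SMC2 in the condensin core, was not called, at a control mean of 95.9 RPKM. The condensin I subunits had different calls. NCAPD2 was higher (52.5 ± 5.3 RPKM in control and 59.9 ± 0.664 RPKM in SB-treated libraries; log2 fold change 0.19 ± 0.066 (SE), adjusted p = 0.027), a call lost when any of the 4 SB-treated libraries was left out and after the GC and length correction. NCAPG was lower (35.9 ± 2.49 RPKM in control and 30.8 ± 0.112 RPKM in SB-treated libraries; log2 fold change -0.21 ± 0.047 (SE), adjusted p = 0.0031), a call not made without TMM factors. NCAPH was higher in each SB-treated library than in any control (17.3 ± 0.403 RPKM in control and 18.3 ± 0.393 RPKM in SB-treated libraries) without passing the threshold (adjusted p = 0.068).

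**Figure D4:**
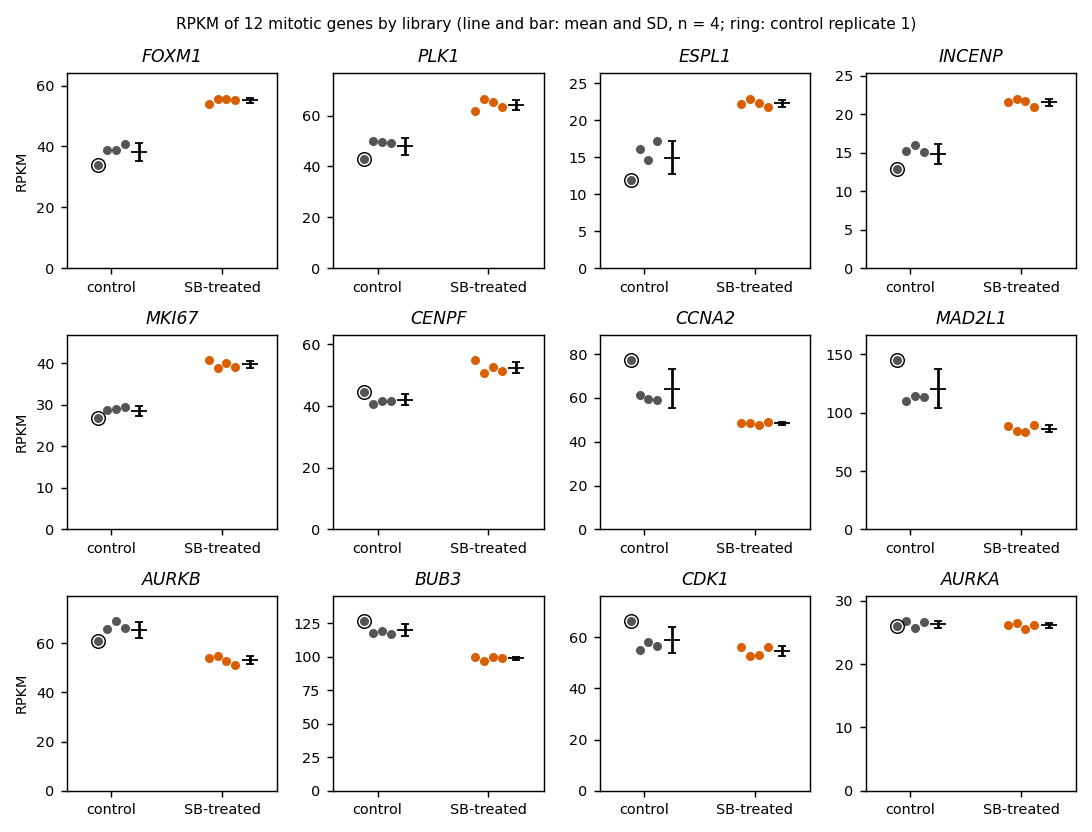
RPKM of 12 mitotic genes in 4 control (grey) and 4 SB-treated (orange) libraries, each point 1 library, with the mean and SD (n = 4) beside the points and a ring around control replicate 1; each axis starts at 0. FOXM1, PLK1, ESPL1, INCENP, MKI67 and CENPF lay higher and CCNA2, MAD2L1, AURKB and BUB3 lower in SB-treated libraries without overlap, whereas CDK1 and AURKA overlapped.

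The 22 genes that were not called had log2 fold changes from -0.18 to 0.15, of which 13 were above 0. Their 95% intervals reached from -0.35 to 0.29, and 13 of the 22 had an interval within ±0.2, so changes larger than that in either direction were outside the interval for those genes. These intervals hold for the TMM-scaled values only. Without TMM factors CDCA5, among these 13, had a log2 fold change of 0.203 and was called higher.

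Control replicate 1 was the highest control for 31 mitotic genes, the lowest for 11 and between the others for 8. The 31 genes had a median GC content of 39.9% and the 11 a median of 55.7%. The median coefficient of variation over the 50 genes was 7.86% in control libraries, 2.31% without control replicate 1 and 2.25% in SB-treated libraries. Without that library DLGAP5, HMMR, CENPA, SPC25, PRC1, ECT2, RACGAP1, SMC4 and NCAPH were also called higher and BUB1B lower. The part of GC content in these differences was not tested.

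Gene length moved with the direction of change. Genes that rose had a median counted length of 4806 bases, those that fell 2570 and those not called 3166, against 3339.5 for all genes. Across the 50 genes the log2 fold change and length had a Pearson's r of 0.481 and a Spearman's rho of 0.412, beside 0.282 and 0.300 over all genes; these are descriptions across genes, which share libraries and are not independent replicates. Of 10 mitotic genes shorter than 2000 bases, none was higher and 5 were lower, where 18.1% and 48.8% of 3184 genes of that length were. Of 29 genes from 2000 to 5000 bases 6 were higher and 9 lower, where 31.6% and 32.9% of 7513 genes of that length were. Of 11 genes of 5000 bases or more 5 were higher and 3 lower, where 48.0% and 18.6% of 3829 long genes were. The GC and length correction fits the length trend over all genes in each library and removes it. A lower rho afterwards was thus built in, and any length-linked effect of treatment would be removed too. Over the mitotic genes rho was then 0.0962, and the origin of the length trend was not tested. ASPM, CENPE, CENPF and MKI67 are among the longest of the 50, and their log2 fold changes after that correction were 0.32, 0.24, 0.21 and 0.30, still called higher. MAD2L1, AURKB, UBE2C and SPC24 are among the shortest, with log2 fold changes of -0.24, -0.17, -0.07 and -0.04 after the correction, with the last 2 no longer called.

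**Figure D5:**
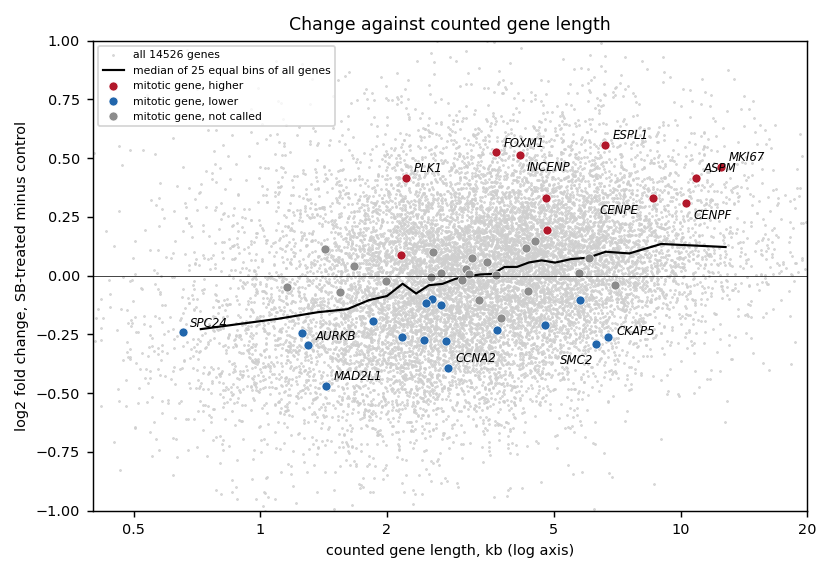
log2 fold change (SB-treated minus control) against counted gene length in kb (log axis) for all genes (small grey points, 218 of 14526 outside the axes) and for the 50 mitotic genes (large points, red higher, blue lower, grey not called), with a line through the medians of 25 equal bins of all genes. The line rises with length; the red points have a median length of 4806 bases and the blue points 2570, and PLK1, at a short length, and CKAP5 and SMC2, at a long one, lie far from it.

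Genes of the same pathway outside the 50 were counted in the same way. Of 12 mitotic kinesins 5 were higher and 1 lower, with KIF14, a motor of cytokinesis, at a log2 fold change of 0.40 (adjusted p = 7.9e-05) and KIF11, which keeps spindle poles apart, at -0.16 (adjusted p = 0.049), a call lost at a pseudocount of 0.1, without TMM factors, without control replicate 3 and when any SB-treated library was left out. Without TMM factors 6 kinesins were higher and 0 lower. Of 33 further kinetochore genes 6 were higher and 14 lower, with 8 and 9 without TMM factors and 9 and 17 without control replicate 1. CASC5, the kinetochore scaffold also named KNL1, had a log2 fold change of 0.25 (adjusted p = 0.00023) and ZW10, of the ROD complex, -0.50 (adjusted p = 5.3e-06). The anaphase-promoting complex had 0 of 18 genes higher and 11 lower, with a median log2 fold change of -0.28. Its deepest fall was in ANAPC10, a subunit that helps bind substrates, at -0.56 (adjusted p = 0.00062). Without TMM factors, 4 genes of this complex were higher and 9 lower, after the GC and length correction the counts were 3 and 12, and leaving out control replicate 1 gave 2 and 12.

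Cohesin and its regulators gave 4 higher and 5 lower of 15. GSG2, the haspin kinase that marks histone H3 for the passenger complex, had a log2 fold change of 0.36 (adjusted p = 1.8e-05), and SMC3, a core cohesin subunit, -0.44 (adjusted p = 0.00033). Without TMM factors 7 were higher and 1 lower, while leaving out control replicate 1 gave 7 and 7. Of 6 further condensin and chromosome genes 2 were higher and 3 lower, and without TMM factors 2 and 1. They were led by NCAPH2 at a log2 fold change of 0.26 (adjusted p = 0.045) and NCAPD3 at -0.40 (adjusted p = 8.8e-06), both of condensin II. The call of NCAPH2 was lost at a pseudocount of 0.1, after the GC and length correction, and when any SB-treated library was left out. Of 22 kinases and phosphatases of mitotic entry and exit 8 were higher and 8 lower, and 8 and 6 without TMM factors. GTSE1, a microtubule-associated protein of G2 and S phase listed with them, had a log2 fold change of 0.44 (adjusted p = 3.4e-06), and PPP2R2A, a regulatory subunit of the phosphatase PP2A, one of -0.54 (adjusted p = 2.6e-05).

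Among 22 genes of the DREAM, MuvB, B-MYB and E2F group, 7 were higher and 5 lower, with 9 and 3 without TMM factors and 9 and 8 without control replicate 1. MYBL2 stood at 126, 149, 151 and 150.1 RPKM in control replicates 1 to 4 and 161, 163, 159.5 and 158 RPKM in SB-treated replicates 1 to 4. SB-treated libraries lay above all controls, control replicate 1 being the lowest (log2 fold change 0.16 ± 0.059 (SE), adjusted p = 0.037), and the call was lost when any SB-treated library was left out. E2F7, a repressing E2F, was higher (log2 fold change 0.25, adjusted p = 0.00045) and NFYC, a subunit of NF-Y, lower (-0.48, adjusted p = 2.3e-05). E2F1 (log2 fold change 0.11, adjusted p = 0.069) and LIN37, a MuvB subunit (-0.12, adjusted p = 0.10), were not called, and LIN37 was called lower without control replicate 1. Every SB-treated value of E2F1 lay above every control. E2F1 was called higher without TMM factors, with a replicate block and after the GC and length correction, but not after that correction with the block.

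The G1/S and replication genes, which are transcribed earlier in the cycle, were mostly lower. Of 32, 2 were higher and 22 lower, with a median log2 fold change of -0.19, and without TMM factors 2 and 13. CDC6, which loads the replicative helicase, stood at 85.3, 77.7, 75.1 and 78.8 RPKM in control replicates 1 to 4 and 50.9, 48.3, 49.8 and 49.4 RPKM in SB-treated replicates 1 to 4, with SB-treated libraries far below all controls (log2 fold change -0.66 ± 0.044 (SE), adjusted p = 1.8e-06). CCNE2, cyclin E, was higher, with a log2 fold change of 0.40 (adjusted p = 0.001). Of 19 CDK inhibitors and p53 targets with a row, of 20 listed, 5 were higher and 10 lower, with 6 and 7 without TMM factors and 7 and 6 after the GC and length correction. CDKN1A, the CDK inhibitor p21, stood at 6.77, 8.09, 7.43 and 8.39 RPKM in control replicates 1 to 4 and 15.4, 16.8, 16.6 and 16.2 RPKM in SB-treated replicates 1 to 4. Its level rose with a wide gap between the groups (log2 fold change 1.0 ± 0.06 (SE), adjusted p = 1.1e-06), and GADD45B, a stress-induced gene, fell by 0.48 on the log2 scale (adjusted p = 0.00016). Together, with TMM factors, 39 of the 179 genes outside the 50 were higher and 79 lower, beside 33.0% and 32.6% of all genes. Without TMM factors each of these lists held fewer genes lower, beside 43.0% of all genes higher and 23.1% lower.

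Reads of neighbouring genes may limit a few of these values. In the GENCODE v44 annotation 34 of the 50 genes share no exonic base with another gene. Its exons, taken over all transcripts of a gene, differ in length from what was counted. PLK1, for example, has 4760 exonic bases there and a counted length of 2227, so some shared bases may not have been counted. FOXM1, PLK1, PRC1, SMC4 and NCAPG share more than 10% of their exonic bases with a gene on the opposite strand, and NUSAP1, BUB1B and PRC1 with an annotated gene on the same strand. The strand setting of the counting is not given in the sources used here, so reads of these genes and of their neighbours cannot be told apart where they overlap.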

How the data were processed

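Total RNA of 4 control and 4 SB-treated HepG2 samples was sequenced by the authors as 50-base single reads from a stranded total RNA kit. Per the submitters' processing notes and the study's methods, reads were mapped to hg38 with TopHat2 2.1.0 and summarized per gene with featureCounts 1.5.0, genes not exceeding a CPM of 1 in 2 or more samples were dropped, and TMM factors from edgeR 3.16.5 were applied to the library sizes. The deposited values used here are RPKM that the authors computed from those counts. The deposited table also holds the authors' own fold changes, mean log CPM, p-values and false discovery rates, which were not used. Its RPKM values are whole multiples of what 1 read is worth, and reads were recovered from these steps for all 14526 genes (within 0.01 of a whole number).

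limma 3.58.1 (R 4.3.3, Python 3.11.15) was fitted to log2(RPKM + 1) for all 14526 genes with no filter and no covariate, with Benjamini-Hochberg adjustment over all genes and a threshold of 0.05. This understates changes of low genes. The pseudocount of 0.1, library sizes without TMM factors, median-of-ratios scaling, a mean of at least 1 RPKM, voom on the recovered reads, a replicate block, a GC and length correction (natural splines with 5 df, 91.5% of genes), an intensity trend and each library left out in turn were tried as alternatives. The statistics were tested on simulated data. The 50 genes, the lists outside them and the markers were chosen with earlier results of these data known. Per-library values are given for CDK1, CCNB1, PLK1, AURKA, AURKB, BUB1, BUB3, MAD2L1, CDC20, CENPA, NDC80, TOP2A, MKI67, FOXM1, BIRC5 and UBE2C, and for the largest rise and fall called in each role group. From each list outside the 50, the largest rise and fall called were named, with CDKN1A, MYBL2, E2F1 and LIN37. Promoters and gene positions are those of RefSeq (GRCh38.p14). Counting error alone limits a gene of 663 reads, the lowest value of these genes in any library, more than one of 30502. The levels of the hepatocyte markers with a row are not reported here.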

Additional observations from a re-analysis of the deposited data

Results flagged for a closer look

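Within each group of 4 libraries, the highest or lowest value was set against Dixon's 95% critical value for the ratio of its gap to the group's range. Of 100 groups (50 genes, control and SB-treated), 18 went past it, where chance gives about 5.

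In 12 genes control replicate 1 lay far above the other controls. The ratios were 0.872 for CCNA2, 0.929 for NUSAP1, 0.844 for DLGAP5, 0.856 for HMMR, 0.879 for BUB1B and 0.836 for TTK. They were 0.851 for MAD2L1, 0.876 for SPC25, 0.866 for ECT2, 0.873 for SMC2, 0.902 for SMC4 and 0.875 for TOP2A. These genes had a GC content of 36.2% to 48.3%. In PLK1 (0.911) and CDC20 (0.890), with a GC content of 57.1% and 57.9%, control replicate 1 lay far below the other controls. The part of GC content in this pattern was not tested.

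Another library stood apart for 4 genes. Control replicate 2 was lowest for CKAP5 (0.877) and control replicate 3 lowest for NCAPH (0.926). SB-treated replicate 2 was lowest for RACGAP1 (0.836) and highest for NCAPD2 (0.834).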

How the results depend on the processing

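Of the 28 mitotic genes called, 16 kept their direction and their call under all 17 alternatives. Against 11 genes higher, 17 lower and a median log2 fold change of -0.01, library sizes without TMM factors gave 19, 10 and 0.0877, the GC and length correction 21 higher and a median of 0.0491, and that correction with the replicate block 20 and 0.0491. Over all genes, library sizes without TMM factors gave 6253 higher, 3357 lower and a median of 0.0791, and the GC and length correction 4462, 4966 and -0.0111. Leaving out 1 library at a time gave 9 to 20 genes higher, 15 to 18 lower and medians from -0.0407 to 0.0263, with the 20 and the 0.0263 obtained without control replicate 1. The replicate block alone gave 11 and 17; CCNB1 and CDC25C lost their calls and 2 genes gained one. Same-numbered libraries correlated at 0.38, 0.327, 0.173 and -0.16 in their deviations from the group means, so the numbers were not taken to pair the libraries.

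Of the called genes only TOP2A changed sign, to 0.0026 without TMM factors. Of the 22 genes not called, 15 changed sign under at least 1 alternative, and 4 of these were then called higher, AURKA without TMM factors and CCNB2, NUF2 and PTTG1 after the GC and length correction. AURKA gave 0.0941 without TMM factors (then called higher), 0.0614 after the GC and length correction with or without the block, and -0.0178 to 0.0033 with 1 library left out, above 0 without control replicate 2 (0.0016) and SB-treated replicate 3. BUB1 gave -0.0023 with median-of-ratios scaling and -0.0271, -0.0163, -0.0046 and -0.0105 without control replicates 2, 3 and 4 and SB-treated replicate 1, within a range of -0.0271 to 0.0549. CDC20 gave -0.0372 without control replicate 1 and up to 0.0772 without another library. It was called higher after the GC and length correction, at 0.115 (limma adjusted p = 0.023). NCAPH gave -0.0161 after the GC and length correction with or without the block. Calls lost were CDC25C, SPC24, UBE2C and NCAPD2 after that correction, CDC25C, NUSAP1, NDC80, BIRC5, CDCA8 and NCAPG, besides TOP2A, without TMM factors, and CCNB1, CDC25C and TOP2A at a pseudocount of 0.1. The cause of these changes was not tested. With 4 libraries a group, changes within ±0.2 on the log2 scale were near the limit of what these data could resolve for several genes.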
